A study of Mus musculus with 8 samples.

Results

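The probes nearest to mouse gene starts were examined in a chromatin immunoprecipitation (ChIP-chip) experiment on Flag-tagged HoxB4, to describe how much Flag-IP DNA was recovered there and at which genes. A probe was taken as a core gene start probe if the array annotation placed it from -250 to 250 bp of its nearest gene start and gave it neither the divergent promoter nor the downstream class. Of 474380 genomic probes on 2 promoter arrays, 36934 (7.79%) met this rule, 18653 on promoter array 1 and 18281 on promoter array 2. All but 9 of them, which carried outlier marks, gave a value, and they belonged to 15602 genes.

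Both arrays were hybridised with DNA of hematopoietic progenitors made from the mouse embryonic stem (ES) cell line B6N-22UTR and overexpressing 3xFLAG-HoxB4 from a retrovirus. Precursors positive for c-Kit, the stem cell factor receptor, and CD41, a platelet integrin found on early blood precursors, were isolated from embryoid bodies after 6 days, transduced, and kept on the stromal line OP9, and c-Kit+ cells were recovered by magnetic sorting at day 12 of the coculture. The Flag-IP DNA was labelled with Cy5 and the input DNA with Cy3 after T7 RNA polymerase-based amplification. Each array carried its own probes, so every gene start was measured in 1 sample, there was no replicate, no test was made and every difference is a description of these arrays. A Flag-IP from cells without tagged HoxB4, which would give the background of the antibody, was not analysed here, and the ChIP arrays hold no measure of RNA with which to check the identity of the cells.

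HoxB4 is a homeodomain transcription factor known for expanding blood stem cells and progenitors grown in culture. Homeodomains bind short AT-rich sites with a TAAT core, and Hox proteins also bind composite sites together with Pbx and Meis cofactors. The core promoter around a gene start is where RNA polymerase II and the general transcription factors assemble. In mammals most broadly active genes start in CpG-rich DNA with binding sites for factors such as NF-Y (CCAAT), Sp1 (GGGCGG), ETS proteins (CCGGAAG), NRF1 and YY1, whereas many tissue-restricted genes start in CpG-poor DNA, some with a TATA box.

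The RefSeq promoters (assembly GRCm38.p6) that bear most on the results are printed below as the 250 bases before the start, 5′ to 3′ on the gene's strand, with matches to any of the 12 motifs searched, on either strand, in capitals. The first 5 are the highest gene starts whose gene has exactly 1 RefSeq promoter in the table used, namely Atp6ap2 (chrX:12587509-12587758, + strand), Akr1e1 (chr13:4609165-4609414, - strand), Os9 (chr10:127121161-127121410, - strand), Tmem97 (chr11:78550736-78550985, - strand) and Enkd1 (chr8:105708209-105708458, - strand). Fundc2 (chrX:75382149-75382398, + strand) is the highest other gene with the ETS motif, and Klhdc9 (chr1:171360799-171361048, - strand) the highest with TAATTA. Hyal6 (chr6:24732995-24733244, + strand), among the lowest gene starts, stands for contrast.
Atp6ap2: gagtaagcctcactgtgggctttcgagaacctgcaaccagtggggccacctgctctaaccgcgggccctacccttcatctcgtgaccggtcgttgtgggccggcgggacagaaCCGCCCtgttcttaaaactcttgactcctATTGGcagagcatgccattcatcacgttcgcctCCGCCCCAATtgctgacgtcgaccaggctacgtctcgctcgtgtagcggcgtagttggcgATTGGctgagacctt
Akr1e1: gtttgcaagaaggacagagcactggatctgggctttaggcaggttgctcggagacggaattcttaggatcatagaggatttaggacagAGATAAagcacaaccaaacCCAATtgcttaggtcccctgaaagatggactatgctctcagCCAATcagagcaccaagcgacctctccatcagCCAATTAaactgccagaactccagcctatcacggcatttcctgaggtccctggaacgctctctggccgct
Os9: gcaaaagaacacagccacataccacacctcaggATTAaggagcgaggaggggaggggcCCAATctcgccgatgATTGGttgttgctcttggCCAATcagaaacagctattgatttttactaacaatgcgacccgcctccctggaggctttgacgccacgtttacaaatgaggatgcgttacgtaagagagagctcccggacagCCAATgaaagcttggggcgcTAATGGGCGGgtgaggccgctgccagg
Tmem97: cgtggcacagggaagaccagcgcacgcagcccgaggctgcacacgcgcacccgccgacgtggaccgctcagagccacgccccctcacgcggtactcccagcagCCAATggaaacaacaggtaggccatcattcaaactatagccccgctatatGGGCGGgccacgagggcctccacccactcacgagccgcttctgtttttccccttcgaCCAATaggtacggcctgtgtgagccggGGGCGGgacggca
Enkd1: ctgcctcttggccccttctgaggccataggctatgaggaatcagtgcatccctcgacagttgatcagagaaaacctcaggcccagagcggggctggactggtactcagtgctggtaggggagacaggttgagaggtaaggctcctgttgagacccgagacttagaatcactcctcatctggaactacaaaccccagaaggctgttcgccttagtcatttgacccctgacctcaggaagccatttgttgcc
Fundc2: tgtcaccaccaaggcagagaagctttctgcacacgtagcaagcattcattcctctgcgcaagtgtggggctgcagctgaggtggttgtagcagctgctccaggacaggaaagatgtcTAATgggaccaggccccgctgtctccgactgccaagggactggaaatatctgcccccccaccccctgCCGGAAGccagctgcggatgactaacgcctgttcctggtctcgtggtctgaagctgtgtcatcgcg
Klhdc9: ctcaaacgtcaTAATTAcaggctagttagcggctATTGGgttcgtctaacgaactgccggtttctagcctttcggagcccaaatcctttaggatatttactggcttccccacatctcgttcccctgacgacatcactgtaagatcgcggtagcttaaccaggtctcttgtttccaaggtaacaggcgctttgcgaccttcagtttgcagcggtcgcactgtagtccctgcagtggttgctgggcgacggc
Hyal6: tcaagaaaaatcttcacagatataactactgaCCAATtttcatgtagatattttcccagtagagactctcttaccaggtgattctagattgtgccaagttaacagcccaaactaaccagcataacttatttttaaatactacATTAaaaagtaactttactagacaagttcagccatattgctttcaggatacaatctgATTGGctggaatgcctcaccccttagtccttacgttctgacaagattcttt
CCAAT or its complement ATTGG stood 3 times in the Atp6ap2 and Akr1e1 promoters, 4 times in that of Os9, 2 times in that of Tmem97, and 0 times in that of Enkd1, which held none of the 12 motifs. The Hyal6 promoter had 35.6% G and C and 1 CpG, against 59.2% and 20 CpG at Atp6ap2. It also held 2 CCAAT matches, so the motif was not limited to high gene starts. Whether these RefSeq starts are the starts that the arrays were designed on was not tested, because the build behind the probe coordinates was not given in the sources used here.

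Flag-IP DNA was more abundant over input at core gene starts than elsewhere on the arrays. Values are log2 of Flag-IP over input, set to 0 at the median of each array, so 1 stands for a 2-fold excess over the median probe. The core median was 0.35 (quartiles -0.02 and 0.78), 0.36 on array 1 and 0.34 on array 2, against -0.04 over all other probes. At or above 1 stood 17.0% of core probes against 8.81% of all probes, and at or above 2 stood 2.01% against 0.635%. At or below -1 stood 5.22% against 15.4%, and at or below -2 stood 0.891% against 2.88%. Core probes were thus more often high and less often low than the probes of the arrays as a whole, on both arrays. The scanner's own error of a log2 ratio had a median of 0.22 over core probes, 97.3% of them were well above background in both channels, and none was saturated.

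The ratio rose toward the gene start and was higher just downstream of it than just upstream. From -250 to 0 bp the median was 0.29 over 17228 probes (0.29 and 0.28 on the arrays), and from 0 to 250 bp it was 0.40 over 19697 probes (0.42 and 0.38). In 50 bp steps it rose from 0.26 at -250 to -200 bp to 0.42 at 150 to 200 bp and was 0.38 in the last step. The share of probes at or above 2 went from 1.42% to 2.70% between the same steps. Outside the window the sides differed. The median was 0.15 at -500 to -250 bp, and 0.36 at 250 to 500 bp downstream, where 18.0% of probes stood at or above 1. That downstream bin was thus as high as the core window, whose median was 0.35 with 17.0% at or above 1. The 2 sides pooled had a median of 0.28, and upstream probes from -4000 to -1000 bp had -0.19. At the edge of the window, the 1690 probes just inside the limit had a median of 0.32 and the 1510 just outside it one of 0.33, so the signal had no step where the rule ends.

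**Figure D1:**
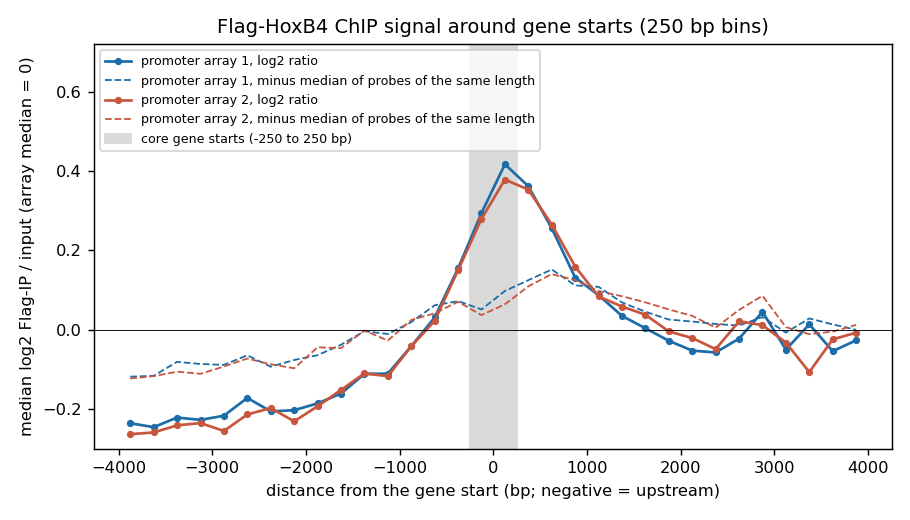
Median log2 Flag-IP over input (vertical axis, array median at 0) in 250 bp bins of the distance from the gene start in bp (horizontal axis, negative upstream), for each array, with solid lines for the ratio and dashed lines for the ratio minus the median of probes of the same length. The solid lines peak at 0 to 250 bp, inside the grey core window, at 0.42 on array 1 and 0.38 on array 2, whereas the dashed lines peak outside it, at 500 to 750 bp.

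Probe length moved with this profile. The arrays use probes of 45 to 60 bases, and short probes had high ratios all over the arrays: outside core gene starts the median was 0.40 for 45-base probes and -0.56 for 60-base probes. At core gene starts 52.9% of probes had 45 bases and 14.3% had 60, against 13.7% and 43.7% elsewhere. Core and other probes of the same length differed less than the pooled medians did. The median of core probes was 0.01 above that of others at 45 bases, 0.18 above at 46 to 48 bases, 0.22 above at 49 to 51 bases, 0.20 above at 52 to 54 and at 55 to 57 bases, 0.11 above at 58 to 59 bases and 0.13 above at 60 bases. At 45 bases, the class of most core probes, the sign differed between the arrays (0.03 and -0.001). High probes were nonetheless more frequent at core gene starts in every length class, with 1.76% against 0.928% at or above 2 among 45-base probes and 0.626% against 0.129% among 60-base probes.

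A second value was therefore computed for every probe, its ratio minus the median of all probes of its length on its array, called length-matched below and chosen after the data were seen. On this scale the core median was 0.06 (0.08 and 0.05 on the arrays), with 11.2% of probes at or above 1 against 8.95% of all probes 1.21% at or above 2 against 0.586%, and 3.78% at or below -1 against 9.27%. The bins at 250 to 500 bp and at 500 to 750 bp downstream lay higher (0.12 and 0.15) than those at -250 to 0 bp and 0 to 250 bp (0.04 and 0.08). In the middle of the distribution core probes thus lay close to other probes of their length, while high values were more frequent among them than on the arrays as a whole. The excess at or above 1 was not particular to the core window. Among probes from 250 to 500 bp of a start, 12.61% stood at or above 1 on this scale, more than at core gene starts. At or above 2 stood 1.096% of them, slightly less than at core gene starts. Input brightness moved with the ratio as well. In the dimmest quintile of core probes by input the core median exceeded that of other probes in the same range by 0.51, and in the brightest by 0.02.

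**Figure D2:**
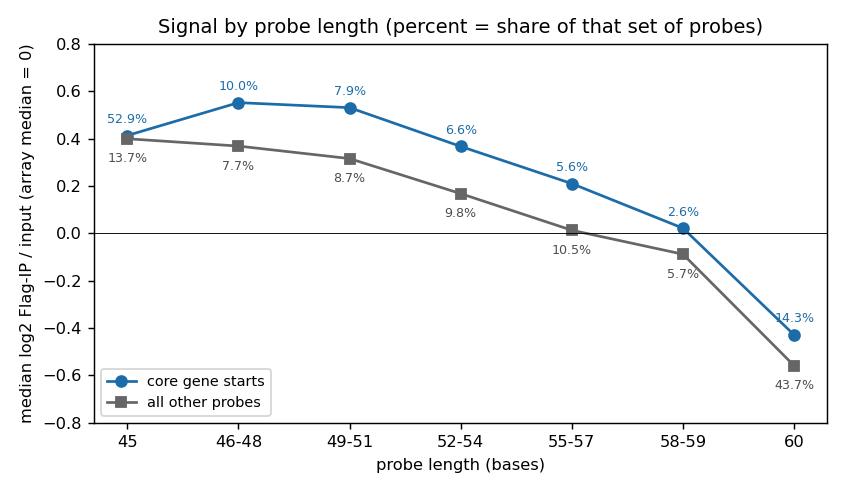
Median log2 Flag-IP over input (vertical axis, array median at 0) by probe length in bases (horizontal axis) for core gene start probes and all other probes, with the share of each set printed beside its point. Both lines fall from short to long probes, from 0.41 to -0.43 for core probes and from 0.40 to -0.56 for the others, and they nearly meet at 45 bases.

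Divergent promoters, which lie between the starts of a pair of genes and are kept out of the core set, had higher values over the same distances. Their 2540 probes from -250 to 250 bp had a median of 0.55 (0.59 and 0.52 on the arrays) against 0.35 at core gene starts. Of them 26.1% stood at or above 1 and 3.98% at or above 2. Probes of 45 bases made up 48.98% of them, against 52.9% at core gene starts, and the length-matched median was 0.28 against 0.06. Probes of the downstream class had a median of -0.51 (-0.26 length-matched).

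At the level of genes, 12655 of the 15602 genes had at least 2 core probes and were given the mean over them, and 2947 had 1. Means ranged around a median of 0.35 (quartiles 0.03 and 0.73), and the SD between probes of the same gene had a median of 0.36. Adjacent core probes of a gene, 157 bp apart in the median, correlated at 0.57 over 21116 pairs and differed by 0.42 in the median. They share the array and, at this spacing, some of the same DNA fragments. The SD of the gene means was 0.66, beside the median of 0.36 within genes. These are unlike measures, since the SD within a gene rests on few probes and the gene means also hold spread between probes.

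A mean at or above 1 was reached by 1777 genes (14% of the 12655), at or above 2 by 104 (0.822%) and at or above 3 by 6. At or below -1 were 442 genes (3.49%), and at or below -2 were 46 (0.363%). With length-matched values, 997 genes (7.88%) stood at or above 1 and 287 (2.27%) at or below -1, and 913 genes stood at or above 1 on both scales. In 33 genes a single probe reached 2 while the mean stayed under 1.

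Most gene starts had higher values than probes farther upstream of the same gene. Of 10737 genes that also had probes from -4000 to -1000 bp, 8556 (79.7%) had the higher mean at the start, by 0.57 in the median, or 61.0% and 0.18 with length-matched values. A window of the same width centred at -2000 bp gave 3.85% of 6836 genes at or above 1, 0.117% at or above 2 and 16.6% at or below -1. With length-matched values 4.45% stood at or above 1 there, against 7.88% at the gene starts. Among the 69 genes with a start at or above 2 and upstream probes, the upstream median was -0.20, and 1 of the 69 reached 1 there. These genes were chosen for a high start, and probes between this upstream range and the core window were not compared. In the 104 genes at or above 2 the top probe lay upstream of the start in 51.9%, against 43.3% of all genes.

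The highest gene start was that of Atp6ap2, which codes for the (pro)renin receptor, a V-ATPase accessory protein. Its 3 probes span chrX:11744584-11744914 in the array's coordinates (like all probe positions below) and read 4.94 at -219 bp, 4.84 at -47 bp and 2.12 at 64 bp, a mean of 3.97 (SD 1.60 over probes). Flag-IP intensity was nearly the same at the 3 probes, 15504, 15820 and 16537, while the input was 482, 526 and 3632, so the lower ratio of the third probe lay in its brighter input. Upstream probes of the gene averaged 0.55.

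Akr1e1, an aldo-keto reductase gene, had 2 probes at chr13:4608350-4608611 with 4.09 at -173 bp and 3.39 at 38 bp, against -0.12 upstream. Os9 encodes a lectin that hands misfolded glycoproteins to degradation from the endoplasmic reticulum. Its 3 probes at chr10:126523833-126524291 read 3.18 at -187 bp, 4.65 at 45 bp and 2.32 at 219 bp. The Os9 probe at -187 bp has 60 bases, a class in which 0.626% of core probes reached 2. Tmem97, a sterol-regulated membrane protein of the endoplasmic reticulum, had 4.44 at -121 bp and 1.88 at 248 bp (chr11:78366660-78367076), and its upstream mean of 1.02 was the highest among these 12 genes. Enkd1, a protein with an enkurin domain, had 4 probes at chr8:108597073-108597563 that read 3.70, 4.44, 0.60 and 3.44 from upstream to downstream. The third, at 81 bp, had an input of 23736 against 426 to 1338 at its neighbours, so 3 of the 4 probes of Enkd1 were high and the outlying one had the brightest input.

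A pair of zinc finger genes stood among the 12 highest. Zfp317 on array 1 read 3.44, 4.01 and 2.21 at -134, 24 and 171 bp (chr9:19372369-19372722) and had the lowest upstream mean of these genes, -2.08. Zfp143, a factor that itself activates many promoters, read 2.65, 3.24 and 2.60 at -226, -83 and 89 bp (chr7:109852630-109852997), and its 3 probes differed by less than 1. Mad2l1, a spindle checkpoint protein, had 3 probes of 45 bases at chr6:66464849-66465263 with 2.78, 2.64 and 3.42, and a length-matched mean of 2.53.

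The rest of the 12 had means from 2.83 to 2.98. For 1110038F14Rik (chr15:76775582-76775890) the probes read 1.91, 3.09 and 3.94, rising across the start. For Bsdc1 (chr4:128963818-128964001), a protein with a BSD domain, they read 2.84 and 3.05. The exocyst subunit gene Exoc1 (chr5:77604013-77604178) had 2.92 and 2.82, and the mitochondrial ribosomal protein gene Mrpl55 (chr11:59018502-59018756) 2.72 and 2.93. In Bsdc1, Exoc1 and Mrpl55 the paired probes agreed within the scanner error of each. All 12 genes kept a length-matched mean of at least 2.45.

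The lowest gene starts were mostly read by 60-base probes. Among genes with all probes well above background, the lowest mean was that of the olfactory receptor gene Olfr1364, with -2.14, -2.85 and -2.74 (chr13:21581647-21582052) and -1.53 upstream. Atm, the kinase that signals DNA double-strand breaks, followed with -2.56 at -118 bp and -2.54 at 115 bp (chr9:53296217-53296509), both from 60-base probes. Its length-matched mean was -1.99, and its upstream probes averaged 0.39, so the start was low and the upstream region was not. In Olfr1029 (-2.20 and -2.37, chr2:85775894-85776061) and Hyal6 (-1.89 and -2.38, chr6:24683224-24683453), the upstream means of -2.09 and -1.85 were nearly as low as the start. Rasa1, which switches off Ras, read -2.18 and -1.89 (chr13:85729401-85729685). Olfr480 had -1.22 and -2.77, BC038156 had -1.87, -1.70 and -2.30, and Pcdhb7, a clustered protocadherin, -2.52 and -1.39, all from 60-base probes. With an alternative background correction (normexp) the means of these lowest genes ran from -1.34 (Atm) to -0.78 (Olfr480).

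**Figure D3:**
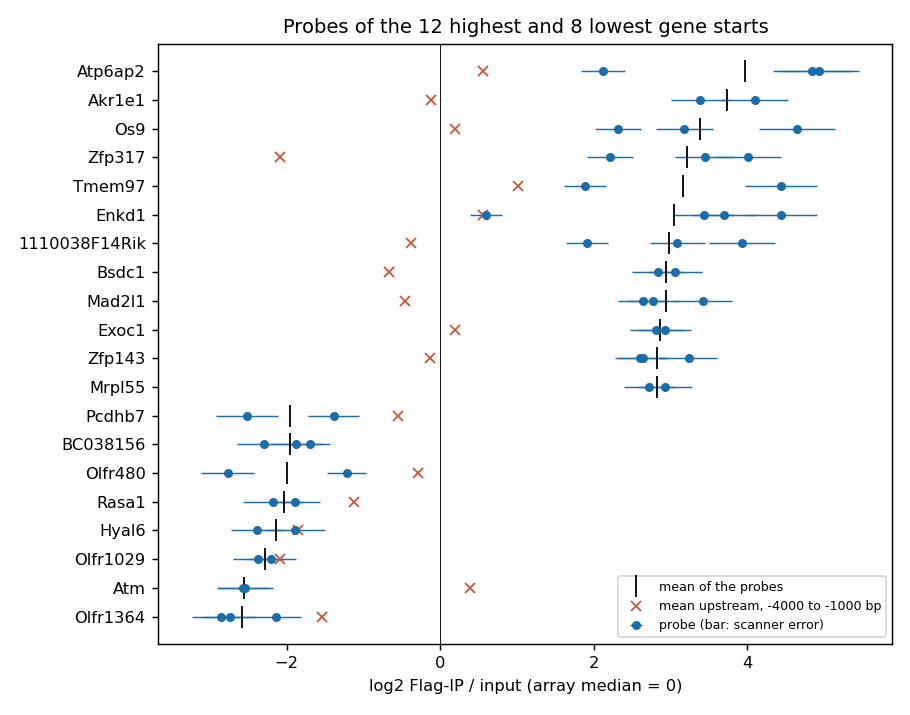
Log2 Flag-IP over input (horizontal axis, array median at 0) of every core probe of the 12 highest and the 8 lowest gene starts (vertical axis, genes), with bars for the scanner error of a probe, a tick for the gene's mean and a cross for the mean of its probes from -4000 to -1000 bp where it has any. The upstream crosses of the high genes lie at or below 1.02, left of nearly all their start probes, and Enkd1 has 1 start probe (0.60) beside its cross.

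Among 33 gene groups, the 8 highest medians (0.80 to 0.95) were those of ribosomal proteins of mitochondria and cytosol, ribosome biogenesis, the replication helicase, oxidative phosphorylation, mitosis, histones, and megakaryocytes and platelets. Over all 12655 genes the median was 0.35 (0.08 length-matched) and 14% stood at or above 1. Mitochondrial ribosomal protein genes had a median of 0.95 over 52 genes (0.61 length-matched), with 23 (44.2%) at or above 1 and 0 at or below -1. Mrpl55 (2.83) and Mrps31 (2.06) were highest and Mrps27 (-0.01) lowest. Nucleolar genes of ribosome biogenesis had a median of 0.94 over 15 genes with 5 at or above 1, led by Nop56, a core protein of box C/D snoRNPs (1.66, 3.38 and 1.44 over its 3 probes), while Ubtf, an RNA polymerase I factor, had a mean of 0.04. Cytosolic ribosomal protein genes had a median of 0.80 over 61 genes with 22 (36.1%) at or above 1, and 55 of the 61 lay above the median of all genes. Rpl22l1 led them at 2.12, and Rpl32 was lowest at -0.39. For oxidative phosphorylation the median was 0.87 over 47 genes with 15 at or above 1, from Ndufa3 at 1.86 down to the testis isoform gene Cox7b2 at -0.82. With length-matched values, 13 mitochondrial ribosomal, 3 nucleolar, 17 cytosolic ribosomal and 9 oxidative phosphorylation genes stood at or above 1, against 7.88% of all genes.

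Replication and division genes lay in the same range. Genes of the replicative helicase and its loading had a median of 0.93 over 15 genes with 6 at or above 1, where Orc5 (1.72) and Mcm10 (1.62) were highest and Mcm9 (-0.78) lowest. Mitotic and cell cycle genes had a median of 0.83 over 24 genes with 8 at or above 1. Besides Mad2l1 (2.94), Incenp, a subunit of the chromosomal passenger complex, stood out with 2.91, 1.96 and 2.55 over 3 probes, and Espl1, the separase gene, was lowest at -0.07. Proteasome subunit genes (0.73, 26 genes, 8 at or above 1), Mediator subunit genes (0.62, 22 genes, 7) and translation initiation factor genes (0.59, 34 genes, 7) followed. The 202 numbered Zfp genes had a median of 0.65 with 68 (33.7%) at or above 1 and 5 at or above 2, or a median of 0.34 and 30 genes at or above 1 with length-matched values. The length-matched counts at or above 1 were 3 for the helicase, 5 for mitosis, 4 for the proteasome, 3 for Mediator and 4 for initiation factors.

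Replication-dependent histone genes, which pack newly made DNA, had a median of 0.91 over 19 genes. Their probes averaged 55.6 bases, longer than in the other growth groups, and their length-matched median of 1.26 was the highest of the 33 groups. H3c6 read 1.91 from a 60-base probe at -201 bp and 3.32 at -59 bp, and 9 of the 19 genes stood at or above 1. Histone genes are near copies of each other, and how far their probes share targets was not tested.

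Among blood groups, megakaryocyte and platelet genes had the highest median gene start. Their median was 0.92 over 17 genes (0.64 length-matched), with 6 at or above 1 and 15 above the median of all genes, and their upstream median was 0.21 against -0.25 over all genes. Pf4, the platelet chemokine, read 1.19, 2.46 and 1.99 over 3 probes, and the thrombin receptor gene F2rl2 had a mean of 1.71. The von Willebrand factor receptor subunit gene Gp9 averaged 1.501 and Itga2b, which encodes the CD41 used to isolate the precursors, 0.85, while Selp was lowest at -0.46.

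Other blood groups lay closer to all genes, of which 14% stood at or above 1. Neutrophil genes had a median of 0.59 over 14 genes with 3 at or above 1 (Mmp8 at 1.55 and Csf3r at 1.38, Ngp at -0.52), and monocyte and macrophage genes 0.45 over 15 genes with 3, from Cd14 at 2.01 to Csf1r at -0.64. Stem cell regulator genes had 0.42 over 24 genes with 2 at or above 1, among them Sox17 (1.36), and Zfx lowest at -0.17. Within that group Kit averaged 0.56, Gata2 0.46, Fli1 0.46 and Runx1 0.15, each within the quartiles of all genes. Lyl1 differed in shape, with 0.79 at its start and 1.67 upstream. Erythroid genes had a median of 0.14 over 17 genes with 2 at or above 1, Tfrc (1.23), the transferrin receptor gene, and Ppox (1.21).

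The medians of mast cell and basophil genes (0.13, 16 genes), B cell genes (0.16, 13 genes) and T and NK cell genes (0.09, 16 genes) were below that of all genes. Each had 1 gene at or above 1, namely Srgn (1.07), Cd72 (1.098) and Cd3d (1.27). These are 6.25%, 7.69% and 6.25% of small groups, against 14% of all genes. Length-matched, each group had 0 genes at or above 1, against 7.88% of all genes. The lowest of each were Il4 (-0.61), Ebf1 (-1.09, with 1 of 3 probes not well above background) and Gzma (-1.16). Endothelial genes had a median of 0.33 over 13 genes from Pecam1 (1.05) to Emcn (-0.33). Mesoderm and neural genes had 0.21 over 15 genes with 0 at or above 1, from Olig2 (0.86) to Neurod1 (-0.50). Pluripotency genes had 0.11 over 15 genes with 0 at or above 1, where Pou5f1 averaged 0.53 and Esrrb 0.60, with 1 of the 2 Esrrb probes not well above background. None of the 3 Dppa4 probes was well above background, so its low mean is only a bound. Markers of the OP9 stroma had 0.46 over 14 genes, from Cxcl12 (1.08) to Lum (-0.60).

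Immediate early genes including AP-1 factors had a median of 0.67 over 19 genes, led by Ier2 (1.64) with Egr1 at -0.04. At or above 1 stood 4 (21.1%), against 14% of all genes. They had the highest upstream median of the groups, 0.39, so the signal of this group was not limited to the start. Interferon genes had 0.49 over 18 genes, in which Bst2, an antiviral membrane tether, read 2.06 and 1.80 and Oasl2 averaged -1.44. Cholesterol synthesis genes had 0.51 over 18 genes with 1 at or above 1, and Ebp was lowest at -0.06. Glycolysis genes had 0.43 over 16 genes with 3 at or above 1, including Gapdh (1.29) and Pkm (1.23), and Pfkm at -0.73. Chromatin repressor and remodeller genes had 0.38 over 14 genes, from Smarce1 (1.08) to Phc1 (-0.60).

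The median gene start of the Hox genes was lower than that of all genes. It was 0.20 over 29 genes (0.01 length-matched), against 0.35 (0.08) over all genes. At or above 1 stood 0 of the 29, against 14% of all genes. At or below -1 stood 1 (3.45%), near the 3.49% of all genes. Hoxa10 (0.62) and Hoxd12 (0.62) were highest, and Hoxd4 was the gene at or below -1. Its probe at -196 bp read -1.10, and its other 2 probes were not well above background, so its mean is only a bound. Hoxb4 itself had 2 probes, 0.31 at -154 bp (45 bases) and 0.66 at 44 bp (60 bases, chr11:96134652-96134902), a mean of 0.48 that ranked 5022 of 12655. Its upstream probes averaged -0.48. Genes of the Hox cofactors Meis, Pbx and Pknox had a median of 0.12 over 8 genes with 0 at or above 1, from Pbx4 (0.96) to Meis2 (-1.12).

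Olfactory receptor genes, silent outside sensory neurons, had a median of -0.56 over 462 genes, with 7 at or above 1 and 137 (29.7%) at or below -1. Vomeronasal and taste receptor genes had -0.74 over 79 genes, with 32 (40.5%) at or below -1, against 3.49% of all genes. Their probes averaged 57.95 and 58.7 bases, and the length-matched medians were -0.22 and -0.24 against 0.08 over all genes. Length-matched, 63 olfactory and 17 vomeronasal and taste receptor genes stood at or below -1, against 2.27% of all genes. With an alternative background correction (normexp) only 18 of all genes stood at or below -1, so most of these receptor genes did not. The medians of the 2 groups minus that of all genes were then -0.85 and -0.97. Their upstream medians were lower than their starts, -1.05 and -1.10. Tas1r3, a taste receptor gene at 1.65, was the highest of the second group. The lowest of each were Olfr381 (-2.98) and Vmn1r74 (-2.78). None of their probes was well above background, so these means are only bounds. How many other low receptor genes had such probes was not counted. Keratin and keratin-associated protein genes had a median of 0.06 over 47 genes, with 0 at or above 1 and 4 at or below -1.

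**Figure D4:**
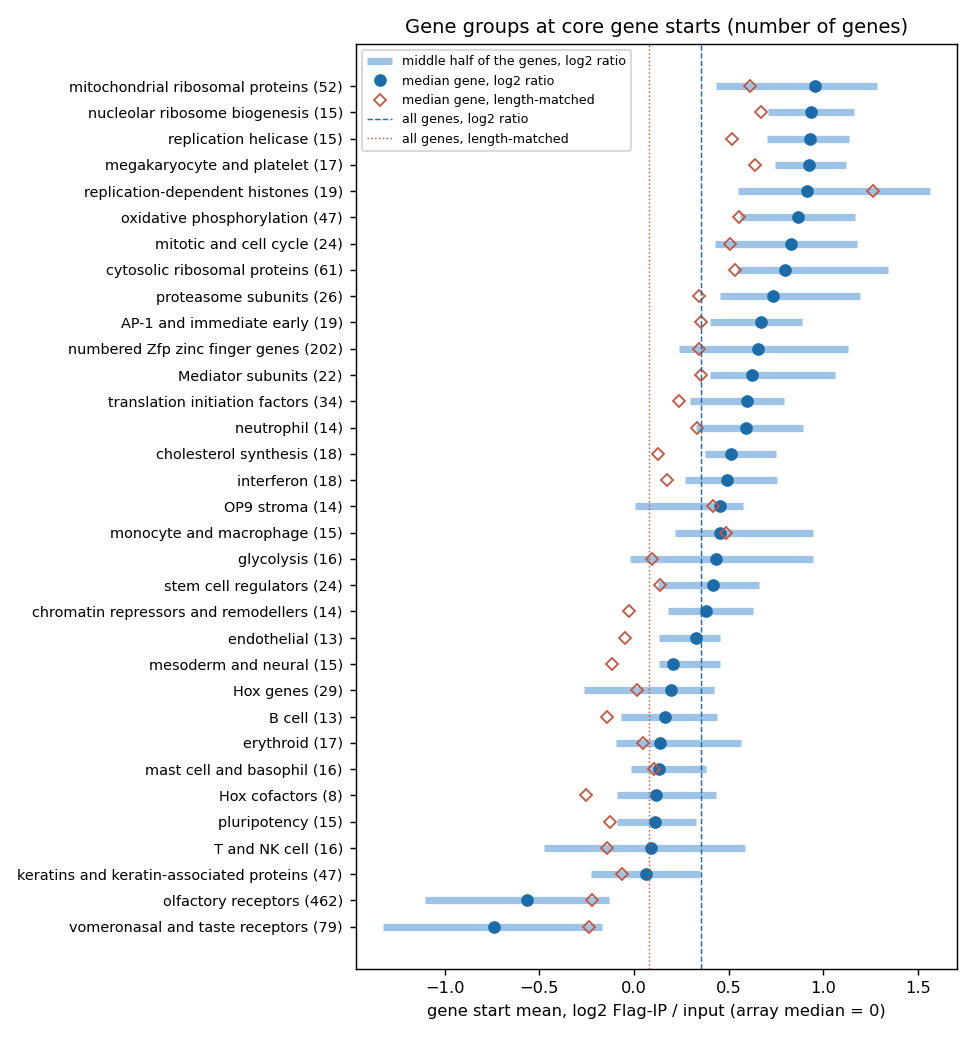
Gene start mean, log2 Flag-IP over input (horizontal axis, array median at 0), for 33 gene groups (vertical axis, number of genes in brackets), with circles for the median gene, bars from the lower to the upper quartile, diamonds for the length-matched median and vertical lines for the medians of all genes. Growth, histone and megakaryocyte groups lie from 0.80 to 0.95 and receptor groups below -0.5, and among groups with a median above 0 the histone diamond (1.26) lies farthest right of its circle.

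Gene start signal differed with the composition of promoter DNA. Exactly 1 RefSeq promoter, 250 bases before to 50 after the start, was found for 8161 of the 12655 genes (64.5%). This is under 80%, so a check of composition over all gene starts is void, and the values below describe the 8161 genes, whose median was 0.36. Genes with several promoters in the table were left out, whereas shares of all promoters below are over its 32851 promoters and include them. Ordered by CpG observed over expected, the lowest quintile (0 to 0.248) had a median of -0.01, with 5.02% of genes at or above 1 and 13.2% at or below -1. The next quintiles had 0.29, 0.48, 0.50 and 0.45, and in the middle one 20.3% stood at or above 1 and 0.858% at or below -1. Length-matched medians ran from -0.04 over 0.07, 0.16 and 0.16 to 0.09. Gene starts in CpG-poor DNA were thus lower on both scales.

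**Figure D5:**
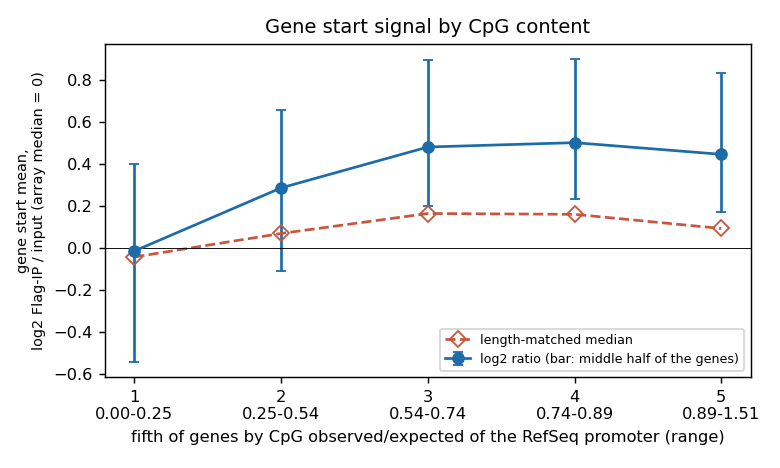
Median gene start mean, log2 Flag-IP over input (vertical axis, array median at 0), in quintiles of 8161 genes by CpG observed over expected of the RefSeq promoter (horizontal axis, range under each), with bars from the lower to the upper quartile and diamonds for the length-matched median. The lowest quintile sits at -0.01 and the next ones between 0.29 and 0.50, and the diamonds keep the order of the lowest quintile with a smaller spread.

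The share of G and C ran in opposite directions in CpG-poor and CpG-rich promoters. Across genes, Spearman's rho of GC share with the gene start mean was 0.53 in the lowest CpG quintile, 0.29 in the next, -0.21 in the third, -0.37 in the fourth and -0.41 in the highest. With length-matched values it was 0.18, -0.01, -0.33, -0.46 and -0.49. Genes of a quintile share the arrays, and over the 8161 genes probe length fell with GC share (rho -0.72), so probes of AT-richer promoters are longer and tend to lower ratios. In the 3 CpG-rich quintiles AT-richer promoters nonetheless had the higher values.

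The homeodomain core TAAT followed the same pattern. It was matched in 49.8% of the 8161 promoters (58.03% of all 32851 promoters of the table), and genes with it had a median of 0.33 against 0.38 without, or 0.14 against 0.04 with length-matched values. In the highest CpG quintile the median was 0.37 with 0 matches, 0.63 with 1, 0.72 with 2 and 0.73 with 3 or more, and the shares at or above 1 were 12.8%, 25.4%, 35.3% and 29.5%. The median GC share fell along with it, 68.7%, 61.3%, 57.8% and 53.2%. In the lowest CpG quintile the medians fell with the number of matches, 0.20, 0.18, 0.05 and -0.45, while the mean probe length rose from 50.8 to 57.2 bases. Length-matched medians there were 0.0066, 0.017, 0.05 and -0.15, which is not that order, against -0.0063, 0.31, 0.53 and 0.45 in the highest CpG quintile. GC share and the number of TAAT matches moved together in both, and their parts in the signal cannot be told apart here. The longer homeobox motif TAATTA (5.29% of all promoters) came with a median of 0.02 in 325 genes against 0.37, and the Hox-Pbx composite TGATTNAT (3.22%) with 0.04 in 200 genes against 0.37. With length-matched values these gaps were -0.06 and -0.10. From the lowest to the highest CpG quintile, the TAATTA gap in the log2 ratio was -0.44 (136 genes with it), -0.29, -0.02, 0.21 (27) and 0.08 (31). It was thus not negative throughout. For TGATTNAT the gap was -0.25, -0.23, -0.26, -0.15 and 0.07 (15 genes in the highest quintile).

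The ETS motif CCGGAAG had a wide gap in the other direction. It was matched in 1073 genes (8.86% of all promoters), which had a median of 0.63 against 0.33 without it, a difference of 0.34 on array 1 and 0.26 on array 2 and of 0.25 with length-matched values. Of genes with the motif 28.3% stood at or above 1, against 13.0% of the others. Its share rose from 4.96% in the lowest quintile of gene start means over 8.52%, 12.9% and 16.5% to 22.8% in the highest. It stood close to the start, with 35.5% of its 1307 matches within the last 50 bases before it. From the lowest to the highest CpG quintile, genes with the motif differed from those without by -0.04 (26 genes with the motif), 0.16, 0.29, 0.23 and 0.22. The Fundc2 promoter printed above is an example, with a gene start mean of 2.62.

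CCAAT separated genes by the number of its matches. The median was 0.34 over 4964 genes with 0 matches, 0.35 over 2069 with 1, 0.45 over 760 with 2 and 0.66 over 368 with 3 or more, and the shares at or above 1 were 12.8%, 15.8%, 19.9% and 30.4%. Length-matched medians were 0.06, 0.12, 0.15 and 0.35. The same order of shares held on each array, with 14.3%, 17.9%, 22.3% and 34.4% on array 1 and 11.2%, 13.6%, 17.5% and 26.0% on array 2. Of the 76 genes at or above 2 with a promoter, 25 (32.9%) had at least 2 matches, against 13.8% of the 8161 genes and 11.7% of all promoters. This count was made after the printed promoters had been seen, and genes at or below -1 had at least 2 matches in 13.4% of cases. In the lowest CpG quintile the order of medians was not seen, with 0.05, -0.05, -0.18 and -0.18. The quintile above it had 0.28, 0.29, 0.26 and 0.69, and the highest had 0.43, 0.45, 0.552 and 0.545. Medians rose at every step only in the middle CpG quintile and in the quintile just above the middle. In every quintile but the lowest, genes with 3 or more matches had a higher median than genes with 0.

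Pooled over CpG quintiles, the YY1 motif (0.633% of all promoters) gave a gap as wide as the ETS motif in fewer genes. The median was 0.69 in 98 genes against 0.36, a difference of 0.27 on array 1 and 0.38 on array 2 and of 0.26 with length-matched values. From the second to the highest CpG quintile the gap was 0.38 (3 genes with the motif), 0.24 (23), 0.34 (28) and 0.05 (44). In the highest quintile it was thus narrower than that of the ETS motif (0.22). Of the remaining motifs, the CREB motif TGACGTCA (1.79%) came with 0.56 in 211 genes against 0.36. The E-box CACGTG (7.15%) came with 0.47 against 0.35, and the NRF1 motif (0.971%) with 0.49 against 0.36, a gap of 0.003 on array 1 and 0.16 on array 2. TATAAA (13.6%) came with 0.10 in 969 genes against 0.39, and the GATA motif AGATAA (11.2%) with 0.18 against 0.38. With length-matched values the gaps of TATAAA and AGATAA were only -0.07 and -0.005. From the lowest to the highest CpG quintile, the TATAAA gap in the log2 ratio was -0.38, -0.18, -0.04, -0.06 and 0.02. The AGATAA gap was -0.25, -0.22, 0.05, 0.11 and 0.08. For the Sp1 motif GGGCGG (35.7%) the medians were 0.43 and 0.27, but the sign turned with length-matched values (0.08 and 0.10) and in the highest CpG quintile, where 0 matches gave 0.62 and 3 or more gave 0.34. Motif matches overlap in a promoter and share its base composition, so these differences are not separate from each other.

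Chromosomes differed little. Core medians ran from 0.29 on chromosome 18 to 0.41 on chromosome 8 among the autosomes, with 0.31 on X and 0.26 over 19 probes on Y. Chromosome 9, which is split between the arrays, had 0.34 over 385 probes on array 1 and 0.30 over 1785 on array 2.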

How the data were processed

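The files are scanner output of 2 Agilent promoter arrays, 1 sample each. Per the file headers, Agilent Feature Extraction 10.1.1.1 made the deposited processed intensity by background subtraction, spatial detrending and linear dye scaling. Mean and background intensities and the deposited log10 ratio (scanner column and value table) served alternatives. Log2 of red over green processed intensity was centred on each array's median (0.06 and 0.07 originally), without control spots, outlier marks, loess or quantile steps. Distances, classes and symbols come from the array annotation. RefSeq tables of GRCm38.p6, used for names and promoters only, renamed 15631 symbols: accessions matched 15154, symbols 242 and synonyms 130, and 105 stayed as deposited. The build of the probe coordinates was not given in the sources used here.

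Genes with at least 2 core probes were summarised by the mean, and log2 ratios of 1 and 2 stand in for a test. Named genes are the 12 highest and 8 lowest means with all probes well above background, the 2 highest and the lowest gene of each list, and Hoxb4. Some of these genes are not reported here. Gp9, Itga2b, Kit, Gata2, Fli1, Runx1, Lyl1, Fundc2, Klhdc9 and Rtn4 were added after their values were seen. The members and lists were chosen with earlier results of these data known. Motifs were matched on both strands of the RefSeq promoters. Python 3.11.15 (pandas 2.3.3, SciPy 1.17.1) was used, with limma 3.58.1 in R 4.3.3 for normexp and loess alternatives, and the scripts were tested on simulated data. The expression arrays were not used, since no table given here pairs their probe sets with genes, so the planned comparison with expression was not run. The number of arrays limits the precision.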

Additional observations from a re-analysis of the deposited data

How the results depend on the processing

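The deposited log ratio, the deposited value table and probes with a single entry kept every count within 1.5 times of the reported one and every median within its spread, as did, for counts, the median over probes and separate starts. Normexp background correction gave a core median of 0.555, 2695 genes at or above 1, 183 at or above 2 and 18 at or below -1. Removing the trend with brightness gave 0.17, 975, 28 and 151, and length matching 0.065, 997, 52 and 287. The core median was 0.36 with well-above-background probes only, where 328 genes stood at or below -1. It was 0.31 in a window of 500 bp, which left 67 genes at or above 2. The narrower window around the start gave 693, 58 and 139 genes, counted over the smaller set of genes with at least 2 probes in it. Of the 12 highest genes, 5 had a value there, each at or above 2, and the others had too few probes. Taking genes with at least 1 probe gave 178 at or above 2, and at least 3 probes gave 917, 47 and 211. The split of core probes at or above 1 and at or below -1 was 17.0% and 5.22% as reported, 27.1% and 0.534% with normexp, 12.9% and 2.24% with the brightness trend removed, and 11.2% and 3.78% length-matched. A list's median minus that of all genes changed sign for OP9 stroma (-0.35 with normexp, -0.20 at 500 bp), interferon (-0.18 with normexp), B cell (0.14), cholesterol synthesis (-0.092) and translation initiation factors (-0.0098) with the brightness trend removed, mast cell (0.11 in the narrower window, 0.026 length-matched) and Hox cofactors (0.50 in the narrower window). Lists whose reported difference was under 0.1 also changed sign: stem cell regulators (-0.039 with normexp, -0.011 without the brightness trend, -0.13 in the narrower window), monocyte and macrophage (-0.10) and glycolysis (-0.14) with normexp, chromatin (-0.29 without the brightness trend, -0.025 at 500 bp, -0.10 length-matched) and endothelial (0.073 at 500 bp). The cause was not tested. No paired analysis was possible because each array has its own probes and no test was made, and the numbered expression replicates were not used. The comparison with expression and its alternatives were not run. Dim spots limit low ratios, and 97.3% of core probes were well above background in both channels.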

Other observations

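In 181 genes the core probes belong to several starts more than 1000 bp apart, so a gene mean mixes them. Rtn4, a reticulon that shapes the endoplasmic reticulum and was picked out after its values were seen, had 8 core probes on chromosome 11. A pair at 1 of its starts read 4.28 at -114 bp (chr11:29592809-29592856) and 4.10 at -1 bp (chr11:29592923-29592967), while the third probe of that start read 0.98 at -227 bp with a brighter input (13168 against 1534 and 2036), and probes at its other starts read from -0.48 to 1.69.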
